A study of Mus musculus with 48 samples.

Results

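Cycling Ku70-/- and WT vAbl cells were compared for how the coding end of the Igκ Jκ1 segment was joined when V(D)J recombination was not induced. The comparison used every library with the labels cycling, Jκ1CE and either genotype, which are 3 Ku70-/- and 3 WT libraries of 48 in the series. vAbl cells are mouse progenitor B cells transformed by the Abelson kinase. The kinase keeps them in cycle, and STI-571, an inhibitor of that kinase, arrests them and brings on cutting of Igκ by the RAG1/2 endonuclease. None of the 6 libraries came from cells given STI-571, DMSO or a ligase inhibitor. Libraries of the same bait from arrested cells, 3 of each genotype, are used for comparison, and those cells had STI-571 at 3 µM for 96 h together with DMSO, so arrest and vehicle cannot be told apart. Of these, Ku70-/- arrested library 1 is not listed in the study's supplementary tables. The WT cells are clone B and the Ku70-/- cells are clone B1, in which exons 4 and 5 of Ku70 were deleted with Cas9, so each genotype is a single clone. Differences between the genotypes cannot be told apart from other differences between these clones, and the junction lists hold no measure of Ku70 itself. The labels do not say whether the libraries of a genotype came from separate cultures, while the study's figure legends describe its experiments as biological repeats.

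Ku70 and Ku80 form the ring that binds broken DNA ends and starts nonhomologous end joining (NHEJ). RAG1/2 cuts between a gene segment and its recombination signal sequence (RSS), which has a conserved heptamer at the cut and a nonamer beyond a spacer. Each cut leaves a coding end closed as a hairpin and a blunt signal end. NHEJ joins coding end to coding end (CE-CE) and signal end to signal end. Alternative end joining (A-EJ) works without Ku and is known for resected ends and for microhomology (MH), short stretches of bases that both ends share. A joint of a coding end to a signal end is a hybrid joint.

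HTGTS-JoinT-seq primes on the bait, here the Jκ1 coding end (Jκ1CE), and reads the DNA joined to it, the prey. Every library was taken down to 500000 read pairs by the authors. The WT libraries held 22717, 30320 and 32108 junctions, and the Ku70-/- libraries held 14579, 12295 and 13694. The Ku70-/- libraries were all below the WT libraries, with a log2 difference of -1.06, or 2.08-fold fewer junctions. Over junctions found in 1 library of a genotype only, the log2 difference was -0.010 and the libraries overlapped. That filter takes out unequal parts of the genotypes, since at Vκ sites it kept 22.1% of WT and 58.3% of Ku70-/- junctions. Its result therefore cannot tell whether the difference in yield rests on shared joints. Duplicate reads were kept, so that 1 joint can be counted many times, and such repeats are called copies here. Copies with the same prey position and strand, the same bait end and the same overlap or gap count as 1 distinct junction.

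Libraries of a genotype shared many distinct junctions. At Vκ sites, 130 of 1279 distinct Ku70-/- junctions were in over 1 library, which is 10.2%, and they held 41.7% of the copies. In WT cells 30.1% of 3413 distinct junctions were in over 1 library and held 77.9% of the copies. Sharing in Ku70-/- cells was not limited to precise joints. Among 633 distinct Ku70-/- junctions that had lost over 10 bases at both ends, 67 were in over 1 library and 27 were in all 3. The Ku70-/- cycling libraries also shared junctions with libraries of arrested Ku70-/- cells of the same bait. Depending on the library, 40.4% to 42.5% of distinct Ku70-/- Vκ site junctions were in arrested libraries 2 or 3, and 2.25% to 2.40% were in arrested library 1. WT cycling libraries shared more with arrested libraries of their genotype, since 79.7% to 82.5% of their distinct Vκ region junctions were in any given arrested WT library. How the same joints came to be in several libraries was not tested. The p-values below therefore measure the spread between libraries that hold many joints in common. With 3 libraries against 3, the exact two-sided permutation test cannot give a p below 0.1, and 0.1 is its value wherever the genotypes are said not to overlap.

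The joints that were most copied in each genotype show the contrast that the counts below describe. The germline Jκ1 break (chr6:70672517-70672575, mm9, minus strand) is shown first, read from the coding bases into the RSS, with the heptamer and the nonamer in capitals.
Jκ1 germline: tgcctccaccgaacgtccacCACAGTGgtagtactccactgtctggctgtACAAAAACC
The break at Igkv3-7 (chr6:70558011-70558058, plus strand), the most used Vκ site in WT cells, is shown in the same way.
Igkv3-7 germline: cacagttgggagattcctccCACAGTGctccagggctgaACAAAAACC
The break at Igkv11-125 (chr6:67864027-67864074, plus strand), the single site that passed the usage test below as higher in Ku70-/- cells, follows.
Igkv11-125 germline: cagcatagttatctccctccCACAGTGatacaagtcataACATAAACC
The 3 most copied Vκ site joints of WT cells come next, with Jκ1 bases in lower case and Vκ bases in capitals.
WT Igkv3-7: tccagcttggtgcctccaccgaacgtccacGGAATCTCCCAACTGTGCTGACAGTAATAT
WT Igkv8-27: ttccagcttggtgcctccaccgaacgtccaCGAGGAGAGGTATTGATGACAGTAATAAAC
WT Igkv3-10: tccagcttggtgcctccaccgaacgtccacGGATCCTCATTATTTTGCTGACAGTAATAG
The 3 most copied of Ku70-/- cells are below.
Ku70-/- Igkv1-135: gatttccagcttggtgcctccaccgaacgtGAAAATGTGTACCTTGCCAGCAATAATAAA
Ku70-/- Igkv2-112: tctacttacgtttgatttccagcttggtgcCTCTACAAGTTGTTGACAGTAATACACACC
Ku70-/- Igkv11-125: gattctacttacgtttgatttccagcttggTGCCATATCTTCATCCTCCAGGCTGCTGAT

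All 3 WT joints kept the whole Jκ1 coding end, and their Vκ ends had lost 3, 0 and 3 bases. The Igkv8-27 joint shared 1 base, the first capital C, and the other 2 were direct joints, with neither shared nor inserted bases. The Ku70-/- joint at Igkv1-135 was direct and had lost 4 bases of Jκ1 and 4 of the Vκ end. At Igkv2-112 it had lost 14 and 7 bases and shared 3, the first capitals CTC. At Igkv11-125 it had lost 16 and 35 bases and shared 4, the first capitals TGCC. All 6 were CE-CE joints. The Igkv1-135 joint had 136, 305 and 138 copies in the 3 Ku70-/- libraries, the Igkv2-112 joint had 65, 102 and 122, and the Igkv11-125 joint had 54, 118 and 66.

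In WT cells most Jκ1CE junctions fell at Vκ breaks even without arrest, and in Ku70-/- cells most did not. Vκ breaks were taken as 137 positions, 18.4 to 3166.3 kb upstream of Jκ1, where junctions of arrested WT signal end libraries piled up at a CAC. Of these, 111 have the heptamer CACAGTG, and breaks not used in WT cells are not among them. A junction within 200 bp of such a position was counted at that site. The share of junctions at Vκ sites was 88.8%, 90.0% and 91.6% in the WT libraries and 42.1%, 38.0% and 40.4% in the Ku70-/- libraries. On average this was 90.1% ± 1.44 (SD, n = 3) in WT and 40.2% ± 2.02 (SD, n = 3) in Ku70-/- cells, and the genotypes did not overlap (exact permutation p = 0.1). The Vκ region away from the sites took 0.207%, 0.0693% and 0.0374% in WT cells and 19.7%, 18.6% and 16.7% in Ku70-/- cells. The Jκ region, 2 kb on either side of the Jκ1 break, took 5.35%, 3.60% and 3.86% in WT cells and 31.7%, 35.3% and 33.7% in Ku70-/- cells. These places rose in all 3 Ku70-/- libraries above all 3 WT libraries, by 18.2 and 29.3 percentage points on average. The rest of chromosome 6 took 5.26% ± 0.886 (SD, n = 3) in WT and 7.32% ± 1.39 (SD, n = 3) in Ku70-/- cells. With the Jκ region taken as 10 kb on either side the difference was 0.407 percentage points, and the genotypes overlapped (exact permutation p = 0.2). It changed sign when counted per read pair instead, to -0.0984 percentage points, since the Ku70-/- libraries hold fewer junctions.

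**Figure D1:**
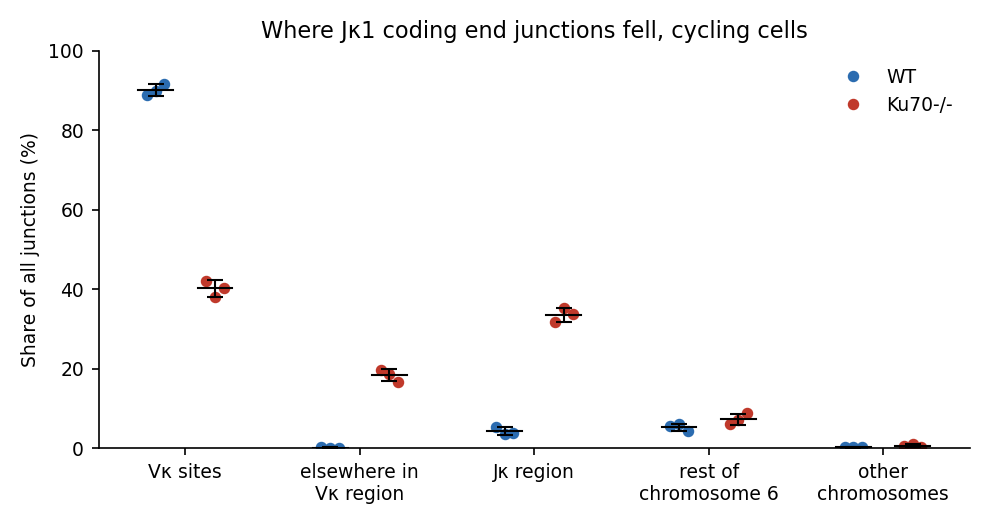
Share of all junctions of a library (vertical axis, percent) in 5 places for the 3 WT (blue) and 3 Ku70-/- (red) cycling libraries; points are libraries, and black lines are the mean and SD. WT junctions sat at Vκ sites (88.8% to 91.6%), while Ku70-/- junctions were divided between Vκ sites (38.0% to 42.1%), the Jκ region (31.7% to 35.3%) and the Vκ region away from the sites (16.7% to 19.7%).

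Within the Vκ region, the Ku70-/- junctions spread from the breaks out to several kilobases. Of Vκ region junctions, 98.0%, 97.8% and 98.4% in WT and 22.98%, 22.8% and 22.5% in Ku70-/- libraries lay at most 10 bp from the nearest break. In Ku70-/- cells another 38.6% to 42.3% lay 11 to 50 bp away, 2.84% to 6.58% lay 51 to 200 bp away and 8.59% to 10.7% lay over 200 bp and at most 1 kb away. A further 20.4% to 22.1% lay farther but within 10 kb, and at most 0.256% lay beyond that. The share of Vκ region junctions over 200 bp from a site was thus 31.8%, 32.9% and 29.2% in Ku70-/- and 0.233%, 0.0769% and 0.0408% in WT libraries. These junctions numbered 2865, 2292 and 2287 in Ku70-/- libraries, from 256, 223 and 203 distinct junctions, against 47, 21 and 12 in WT libraries, from 8, 10 and 12. Their median distance from the nearest site was 1592.5, 1460.5 and 1528.5 bp in the Ku70-/- libraries.

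The prey ran away from the nearest break in 99.2% to 99.4% of Ku70-/- junctions at Vκ sites. The same held for 90.5% to 92.6% of those over 200 bp but within 1 kb of a break and for 84.1% to 91.9% of those farther out. In WT cells the few junctions over 1 kb from a site ran away from it in 70.2%, 36.4% and 16.7%, of 47, 11 and 12 junctions. The most copied Ku70-/- junction away from the sites lay 363 bp into the RSS side of Igkv4-53 (prey first base 69598454 on chromosome 6), with 101, 110 and 98 copies. It had lost 6 Jκ1 bases, and 8 inserted bases stood between bait and prey. When only junctions found in 1 library of a genotype were kept, the share away from the sites was still 25.4 percentage points higher in Ku70-/- cells (exact permutation p = 0.1).

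**Figure D2:**
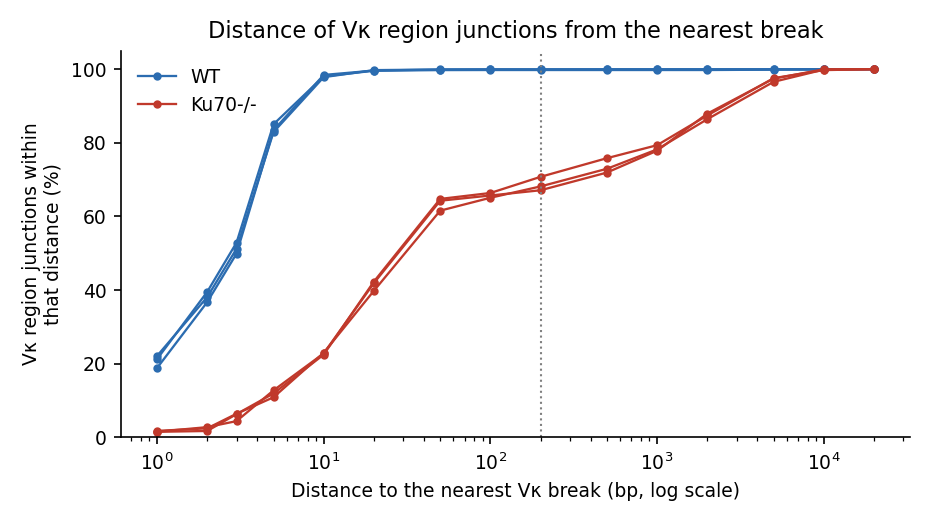
Cumulative share of Vκ region junctions (vertical axis, percent) within a given distance of the nearest Vκ break (horizontal axis, bp, log scale), with 1 line for each of 3 WT (blue) and 3 Ku70-/- (red) libraries; the dotted line marks 200 bp. WT lines reach 97.8% or more by 10 bp, while Ku70-/- lines are at 22.5% to 22.98% there and rise in a first step below 50 bp and a second step between 200 bp and 10 kb.

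Coding ends were joined to coding ends almost without exception in WT cells and less selectively in Ku70-/- cells. Hybrid joints, in which the Jκ1 coding end meets a Vκ signal end, made up 0.511%, 0.979% and 0.391% of Vκ site junctions in WT libraries. In Ku70-/- libraries they made up 38.7%, 40.6% and 43.1%, which was 40.2 percentage points more, with all 3 above all WT libraries (exact permutation p = 0.1). The difference was 40.1 percentage points over junctions found in 1 library only.

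The hybrid share differed by which way the Vκ gene faces, in both genotypes. Of the 137 sites, 63 are deletional, facing the same way as Jκ1, so that a CE-CE joint deletes the DNA in between, and 74 are inversional, so that a CE-CE joint inverts it. In Ku70-/- cells hybrid joints made up 47.4%, 52.7% and 52.6% of junctions at inversional sites and 23.4%, 24.5% and 29.2% at deletional sites. In WT cells they made up 0.782%, 1.08% and 0.574% at inversional sites and 0.111%, 0.811% and 0.0821% at deletional sites. The WT values at deletional sites rest on only 9, 85 and 9 hybrid joints. The share was thus higher at inversional sites in each library of both genotypes, and with 3 libraries of each this difference was not tested. A hybrid joint reverses the outcome, deleting at an inversional site and inverting at a deletional site. Joints that deleted the DNA between Vκ and Jκ1, whatever the end, were 40.8%, 38.8% and 37.6% of Vκ site junctions in WT libraries. They were 57.9%, 62.4% and 60.1% in Ku70-/- libraries, which was 21.1 percentage points more with no overlap (exact permutation p = 0.1), or 26.0 points more with each distinct junction counted once. In arrested cells of the same bait the ranges were 40.4% to 42.1% in WT and 52.2% to 55.1% in Ku70-/- libraries. Away from the sites, 70.8%, 67.9% and 74.0% of Ku70-/- junctions deleted the DNA between. The share of junctions at inversional sites, of either end, was 61.3% ± 1.58 (SD, n = 3) in WT and 60.1% ± 3.41 (SD, n = 3) in Ku70-/- cells, and these overlapped (exact permutation p = 0.6). Without the 5 deletional sites next to Jκ that had no Ku70-/- junction, described below with usage, the difference was -7.58 percentage points without overlap (exact permutation p = 0.1). Leaving them out could move only the WT share, since Ku70-/- libraries had no junction there.

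Over all Vκ site joints, which in WT cells are nearly all CE-CE joints, Ku70-/- cells had fewer direct joints and more microhomology. Direct joints were 71.4%, 72.1% and 71.4% of WT Vκ site junctions and 34.0%, 35.9% and 36.5% of Ku70-/- ones. Joints with over 1 bp of MH, the structure that microhomology-mediated end joining leaves, were 2.82%, 2.24% and 2.48% in WT and 35.3%, 39.2% and 32.7% in Ku70-/- libraries. The differences were -36.2 and 33.2 percentage points, both without overlap (exact permutation p = 0.1). Joints sharing 1 bp were 13.5% ± 0.0573 (SD, n = 3) in WT and 19.6% ± 3.76 (SD, n = 3) in Ku70-/- cells, also without overlap. The median length of MH over 1 bp was 3 bp in each Ku70-/- library and 2 bp in each WT library. At 5 bp or more, MH was found in 3.71%, 3.97% and 2.96% of Ku70-/- junctions and in 0.124%, 0.605% and 0.184% of WT junctions. With each distinct junction counted once, the difference in direct joints was -17.3 percentage points. Over junctions found in 1 library only and each counted once, MH over 1 bp was still 25.8 percentage points higher in Ku70-/- cells, while direct joints were 3.90 percentage points higher rather than lower and the difference in insertions was -42.1 percentage points.

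Insertions were 12.3%, 12.2% and 12.7% of WT junctions and 11.4%, 8.97% and 7.35% of Ku70-/- junctions, a difference of -3.17 percentage points without overlap (exact permutation p = 0.1). With each distinct junction counted once it was -22.9 percentage points. Their lengths differed too. Insertions of exactly 2 bp were 4.75% to 5.67% of WT junctions and 0.271% to 1.35% of Ku70-/- junctions. Insertions of 5 bp or more were 0.556% to 0.888% of WT junctions and 2.28% to 3.95% of Ku70-/- junctions.

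**Figure D3:**
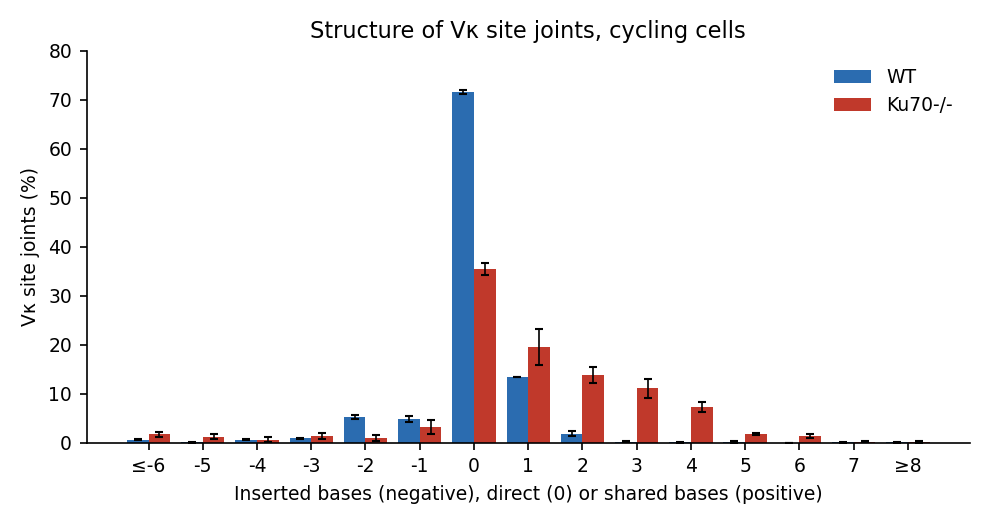
Share of Vκ site joints (vertical axis, percent) by number of inserted bases (negative), direct joints (0) or bases of microhomology (positive) on the horizontal axis; bars are means and error bars SDs of 3 libraries, WT in blue and Ku70-/- in red. Direct joints led in both genotypes (71.6% and 35.5%), and joints with 2, 3 or 4 shared bases were more frequent in all 3 Ku70-/- libraries than in any WT library.

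MH differed little between coding and signal preys in 2 of the 3 Ku70-/- libraries. It was over 1 bp in 35.5%, 35.2% and 32.9% of CE-CE joints and in 35.0%, 45.2% and 32.5% of hybrid joints. Among the 103, 267 and 115 hybrid joints of the WT libraries, MH over 1 bp was found in 47.6%, 46.4% and 65.2%, above all Ku70-/- libraries, and direct joints in 19.4%, 5.99% and 28.7%, below the 38.0%, 29.9% and 34.3% of Ku70-/- libraries. For hybrid joints alone the genotypes thus differed in the opposite direction, counted in copies and not at like trimming. The Vκ signal end had lost no base in 31.1%, 44.9% and 48.7% of WT hybrid joints and in 0.927%, 3.58% and 3.06% of Ku70-/- ones. The median Jκ1 loss in hybrid joints was 0 bases in each WT library and 17, 19 and 17 in Ku70-/- libraries. Away from the Vκ sites, MH over 1 bp was more frequent still, at 56.8%, 46.6% and 45.2%, and direct joints were 6.84%, 12.4% and 15.4%. MH also varied with how far the prey end lay from the break. It was over 1 bp in 23.2%, 25.2% and 26.3% of junctions at most 10 bp from the break, in 41.3%, 46.0% and 34.5% of those at 11 to 50 bp, and in 42.1%, 53.0% and 44.8% of those at 51 to 200 bp. The share was lowest nearest the break in each of the 3 libraries.

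Both ends of the joint were trimmed further in Ku70-/- cells. On the Vκ side, the share of joints within 10 bp of the break, among those within 100 bp, was 98.8%, 98.4% and 98.9% in WT and 40.9%, 43.2% and 45.2% in Ku70-/- libraries. For coding preys alone it was 98.7% ± 0.275 (SD, n = 3) in WT and 41.2% ± 2.32 (SD, n = 3) in Ku70-/- cells. For signal preys alone it was 94.6% ± 8.14 (SD, n = 3) and 46.0% ± 1.93 (SD, n = 3), the WT values coming from 103, 267 and 115 junctions. The median prey end lay 2, 2 and 3 bases from the break in WT and 15, 14 and 12 bases in Ku70-/- libraries. A prey end with no base lost was found in 19.1%, 19.3% and 16.8% of WT coding preys and in 3.48%, 1.37% and 0.698% of Ku70-/- coding preys. None of these genotype differences had overlapping libraries.

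On the Jκ1 side, the coding end was joined with no base lost in 37.8%, 40.3% and 39.8% of WT Vκ site junctions and in 3.54%, 0.791% and 1.17% of Ku70-/- ones. Without the most copied untrimmed joint of each library, the Ku70-/- libraries were at 2.02%, 0.321% and 0.578%. The median loss was 1 base in each WT library and 16, 16 and 14 bases in the Ku70-/- libraries, with upper quartiles of 24 bases in each Ku70-/- library. The longest Jκ1 loss seen was 54 bases, the same in each Ku70-/- library. At the Vκ end only 92.9%, 96.3% and 93.2% of Ku70-/- joints lay within 60 bases of the break. Whether longer Jκ1 losses could be read was not tested, so these losses may be cut short. The losses at both ends went together. The median Jκ1 loss in the Ku70-/- libraries was 8, 6 and 6 bases where the prey end was at most 10 bp from the break, and 20, 21 and 19 bases where it was at 11 to 50 bp. Away from the Vκ sites it was 23, 26 and 29 bases.

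**Figure D4:**
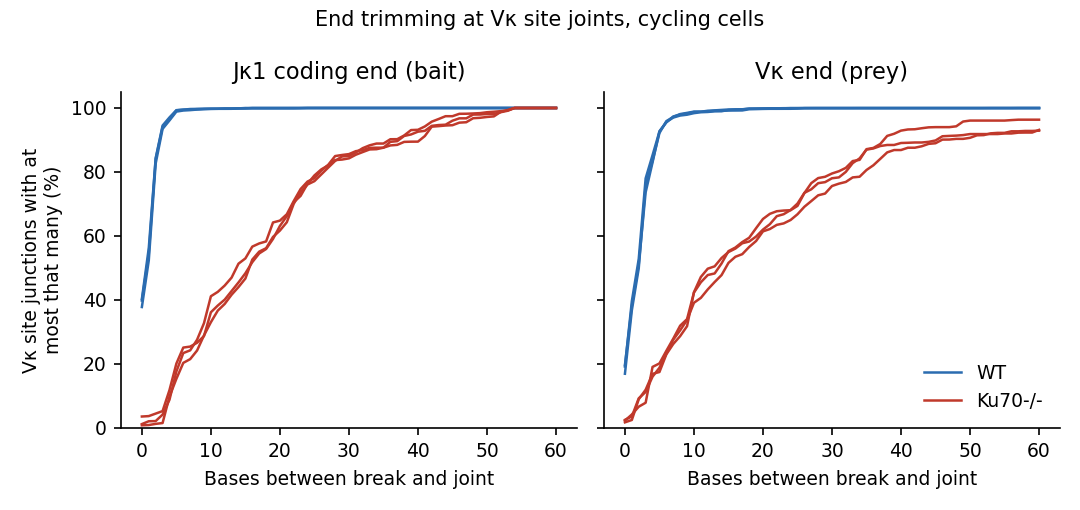
Cumulative share of Vκ site junctions (vertical axis, percent) with at most the given number of bases between break and joint (horizontal axis) at the Jκ1 end (left) and the Vκ end (right), with 1 line per library, WT in blue and Ku70-/- in red. At the Jκ1 end WT lines start at 37.8% to 40.3% with no base lost and Ku70-/- lines at 0.791% to 3.54%.

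In the Jκ region, most WT junctions were near the breaks of other Jκ segments, while Ku70-/- junctions were mostly deletions across the Jκ1 break itself. Joints within 200 bp of the breaks at Jκ2 to Jκ5 were 63.1%, 63.8% and 72.3% of WT Jκ region junctions and 5.38%, 9.86% and 6.92% of Ku70-/- ones, without overlap (exact permutation p = 0.1). With the Jκ region taken as 10 kb on either side the difference was -25.4 rather than -59.0 percentage points. That window takes in a further 884, 1362 and 833 WT junctions 2 to 10 kb downstream. Joints near Jκ2 to Jκ5 were then no longer most of the WT junctions. Jκ4 held most of these in WT cells, with 559, 614 and 734 junctions, of which 559, 612 and 733 lay within 10 bp of its break. Ku70-/- libraries had 57, 139 and 97 junctions within 10 bp of the Jκ4 break. Jκ3, whose RSS is known as nonfunctional, had 0 junctions within 200 bp in each WT library and 61, 98 and 62 in Ku70-/- libraries, of which 0, 0 and 1 lay within 10 bp of its break.

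Prey on the RSS side of Jκ1 running away from the break, that is, a rejoined Jκ1 break, made up 92.3%, 88.8% and 89.9% of Ku70-/- Jκ region junctions and 36.1%, 36.2% and 27.7% of WT ones. In numbers these were 4270, 3855 and 4144 in Ku70-/- and 439, 396 and 343 in WT libraries. The median loss on the RSS side was 27, 24 and 25 bases in Ku70-/- and 0 bases in each WT library. In Ku70-/- cells 28.6%, 26.5% and 29.7% of these had lost over 200 bp, and in WT cells none of 1178 had. MH over 1 bp was found in 38.6%, 40.6% and 37.9% of the Ku70-/- joints of this kind. Joints that restore the germline sequence could not be counted, since an uncut or perfectly rejoined Jκ1 gives no junction.

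Downstream of the Jκ region, WT junctions gathered at an RSS-like heptamer in the intron between Jκ5 and Cκ (chr6:70674988-70675014, plus strand), 2452 bp from the Jκ1 break. Its 20 preceding bases and the heptamer, in capitals, are printed because this position took most WT junctions outside the Vκ and Jκ regions.
Intron heptamer: cgtggaccactttcctgaggCACAGTG
It had 868, 1344 and 797 WT junctions and 23, 0 and 12 Ku70-/- junctions within 10 bp. Within 200 bp there were 880, 1344 and 809 against 177, 100 and 126, so most of the Ku70-/- junctions there lay away from the heptamer. The position was chosen after its WT count was seen. From 20 to 40 kb downstream there were 100, 200 and 153 WT junctions and 2, 47 and 10 Ku70-/- junctions. Between the Jκ region and the nearest Vκ site the numbers were 248, 253 and 384 in WT and 380, 409 and 754 in Ku70-/- libraries.

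Joints to other chromosomes were few in cycling cells of either genotype. As a share of all junctions they were 0.207%, 0.363% and 0.199% in WT and 0.453%, 1.00% and 0.380% in Ku70-/- libraries, a log2 difference of 1.17 without overlap (exact permutation p = 0.1). With each distinct junction counted once the shares overlapped (difference 1.498 percentage points, exact permutation p = 0.2), as they did over junctions found in 1 library only (0.160 percentage points, exact permutation p = 0.8). Their number per library overlapped, and the Ku70-/- libraries hold fewer junctions in all. They numbered 47, 110 and 64 in WT and 66, 123 and 52 in Ku70-/- libraries (log2 difference 0.12, exact permutation p = 0.7). These came from 30, 44 and 25 distinct WT junctions and 40, 58 and 25 distinct Ku70-/- junctions. In antigen receptor loci outside chromosome 6 (Igh, Igl, Tcra and Tcrd, and Tcrg) 1 of 221 WT junctions and 0 of 241 Ku70-/- junctions were found. A count of 0 would allow a share of up to 1.24% in Ku70-/- cells if copies were independent, for counting error only. Their structure did differ. MH over 1 bp was found in 34.8%, 51.2% and 57.1% of the Ku70-/- joints and in 2.22%, 0% and 1.56% of the WT joints. Insertions were found in 13.6%, 8.94% and 22.4% and in 95.6%, 71.8% and 60.9%, respectively. In the third Ku70-/- library the most copied joint gave 23 of 52.

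Usage of most tested Vκ sites did not pass the test, and 4 of the 7 sites that fell lay in a stretch next to Jκ. Of the 137 sites, 111, 113 and 110 had junctions in WT and 82, 82 and 79 in Ku70-/- libraries, or 120 and 97 over all 3 libraries. These numbers were not compared at equal junction numbers. Vκ site junctions were 20163, 27274 and 29420 in WT and 6133, 4678 and 5535 in Ku70-/- libraries. Usage was tested with limma on log2 junctions per 1000 Vκ site junctions, for the 88 sites whose mean was 20 junctions or more. After Benjamini-Hochberg adjustment over these, 8 sites (9.09%) passed 0.05, 1 higher (1.14%) and 7 lower (7.95%) in Ku70-/- cells. The sites were found in WT libraries, and the mean was over libraries with 76857 Vκ site junctions in WT and 16346 in Ku70-/- cells. The 7 lower sites had no Ku70-/- junction and entered the test through WT cells only. A site used only in Ku70-/- cells could enter less readily, so the numbers higher and lower cannot be weighed against each other. The libraries of both genotypes did not overlap at 34.1% of the tested sites. The most used sites in WT cells were Igkv3-7, Igkv1-135, Igkv3-12, Igkv8-27 and Igkv3-10. In Ku70-/- cells they were Igkv1-135, Igkv3-12, Igkv6-32, Igkv3-10 and Igkv11-125. Igkv1-135, 3112.1 kb from Jκ1, had 44.0, 45.0 and 39.4 junctions per 1000 in WT and 67.5, 87.6 and 64.7 in Ku70-/- libraries. Its log2 difference was 0.76 ± 0.29 (SE), which did not pass the limma test (adjusted p = 0.174) but passed with limma's trend. Igkv3-12, Igkv8-27, Igkv3-10 and Igkv6-32 had log2 differences of 0.54, 0.10, 0.28 and 0.37, none of which passed (limma adjusted p 0.314 to 0.861).

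Igkv11-125 rose from 7.98, 3.56 and 4.96 junctions per 1000 in WT to 28.7, 49.2 and 41.2 in Ku70-/- libraries. Its log2 difference was 2.87 ± 0.43 (SE; limma adjusted p = 0.00747). The rise rested partly on 1 joint, the one printed above, which gave 54, 118 and 66 of the 176, 230 and 228 Ku70-/- junctions there. With each distinct junction counted once the log2 difference was 1.18 (limma adjusted p = 0.0829), and over junctions found in 1 library only it was 1.39 (limma adjusted p = 0.586).

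All 7 sites that fell had 0 junctions in each Ku70-/- library. Their Ku70-/- values were therefore identical, so their limma p-values hold no measured spread between Ku70-/- libraries. Igkv3-7, 114.5 kb from Jκ1, had 957, 1296 and 1486 WT junctions, or 47.5, 47.5 and 50.5 per 1000, and 0 of 16346 in Ku70-/- cells (limma adjusted p = 8.86e-06). Taking 3 junctions over the 3 Ku70-/- libraries as the floor, usage counted in copies was at least 264-fold lower. This and the folds that follow are bounds for copies, not for distinct junctions, and treat copies as independent draws. The 16346 copies came from 1279 distinct junctions, so the stated bounds are too strict. Igkv3-4 had 280, 538 and 456 WT junctions and was at least 89.2-fold lower, and Igkv3-2 had 577, 510 and 491 and was at least 116-fold lower. An unannotated RSS 58.7 kb from Jκ1, among them, had 205, 182 and 198 WT junctions and was at least 42.8-fold lower. Over junctions found in 1 library only, Igkv3-2 and this site no longer passed (limma adjusted p = 0.165 and 0.0647), while Igkv3-7 and Igkv3-4 did (limma adjusted p = 0.00757 and 0.00304). These p-values hold no measured Ku70-/- spread either. Passing or not turned on the WT values and does not tell which falls are firmer. Igkv3-3, in the same stretch, was too little used to be tested, with 14, 1 and 19 WT junctions. Together these 5 neighboring deletional sites took 9.45% ± 0.561 (SD, n = 3) of WT Vκ site junctions. In Ku70-/- cells they had 0 of 16346, which would allow a share of up to 0.0184% if copies were independent. This bound is too strict as well.

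Igkv3-1, only 18.4 kb from Jκ1 and so nearer than all of them, was used in both genotypes. It had 8.13, 5.32 and 8.50 junctions per 1000 in WT and 8.97, 12.6 and 8.31 in Ku70-/- libraries, which overlapped. Igkv3-10, 149.3 kb away on the far side, was used by both as well. Junctions of any kind were missing from most of the stretch. No Ku70-/- cycling junction of either strand lay from 34.1 to 126.8 kb upstream of Jκ1, a length of 92.6 kb in which the WT libraries had 1467, 2017 and 2159. It takes in the sites from Igkv3-3 to Igkv3-7, and Igkv3-2, at 23.5 kb, lies outside it. In arrested libraries of this bait the same stretch held 17101, 16317 and 17339 WT junctions and 0, 2 and 4 Ku70-/- junctions. The other 3 sites that fell lay 229.2, 579.0 and 1761.2 kb from Jκ1 and had 21 to 157 WT junctions in a library. Whether this DNA is present in the Ku70-/- clone was not tested.

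**Figure D5:**
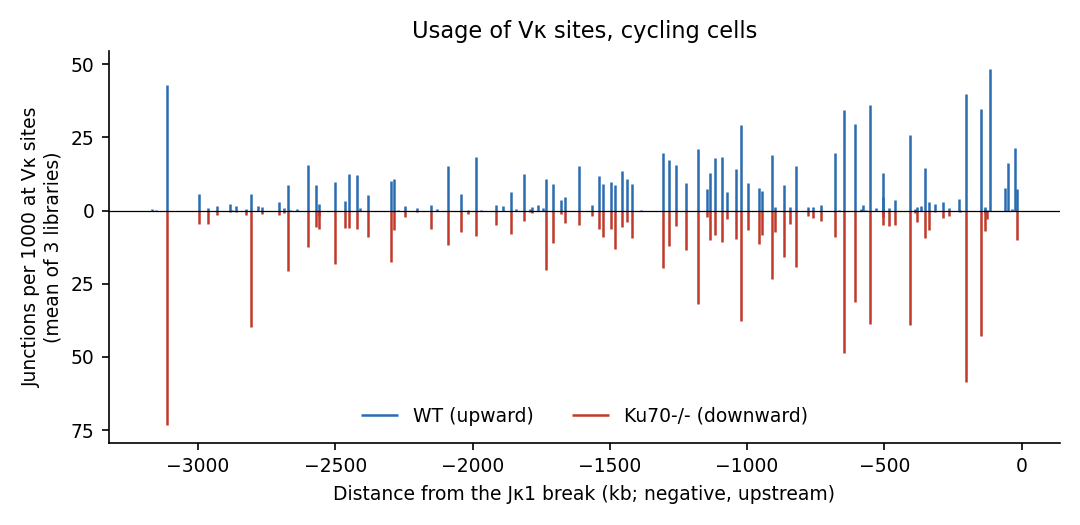
Junctions per 1000 Vκ site junctions (vertical axis, mean of 3 libraries) at each of the 137 Vκ sites by distance from the Jκ1 break (horizontal axis, kb), WT upward in blue and Ku70-/- downward in red. Igkv1-135 near the left end led in Ku70-/- cells, and sites from 23.5 to 114.5 kb upstream of Jκ1, near the right end, were used in WT cells but had no Ku70-/- junction.

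This stretch also moved the regional shares. When the 137 sites were divided by position into 4 blocks of 34 or 35 sites, the block nearest Jκ1 (18.4 to 568.0 kb) took 30.7%, 28.2% and 29.2% in WT and 23.9%, 25.4% and 23.8% in Ku70-/- libraries. This difference of -5.02 percentage points without overlap became 2.35 percentage points when the 5 sites were left out, which changes only the WT shares. The farthest block (2256.4 to 3166.3 kb) took 17.4%, 16.9% and 16.4% in WT and 20.8%, 29.1% and 24.0% in Ku70-/- libraries, and without the 5 sites the difference of 7.73 percentage points was 5.96. Over junctions found in 1 library only it was -1.02 percentage points, and 1.80 with each of those counted once. Both blocks in between overlapped, with differences of -3.67 and 0.960 percentage points from the farther to the nearer (exact permutation p = 0.3 for each). They did not overlap without the 5 sites, at -5.55 and -2.76 percentage points, or with each distinct junction counted once, at -5.63 and 2.33 percentage points (exact permutation p = 0.1 for each). Leaving out each library in turn gave -5.69 to -1.43 for the farther of them and 0.434 to 1.44 for the nearer. Without Ku70-/- library 1 the farther no longer overlapped. Counted once, the farthest block differed by 1.87 and the nearest by 1.42 percentage points, and both overlapped (exact permutation p = 0.3 for each).

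Ku70-/- libraries held fewer distinct Vκ site junctions, 592, 417 and 445, than WT libraries, 1657, 1589 and 1670. Per 1000 junctions they held 96.5, 89.1 and 80.4 against 82.2, 58.3 and 56.8, which overlapped (exact permutation p = 0.2). The difference of 22.95 per 1000 was 52.3 when junctions were told apart by prey position and strand only, and 88.5 in the smaller run, both without overlap (exact permutation p = 0.1 for each). Since distinct junctions run out as a library grows, the libraries were also compared at an equal 4678 Vκ site junctions. There the expected numbers were 548, 417 and 425 in Ku70-/- and 1095, 975 and 1012 in WT libraries, without overlap. The 10 most copied joints held 14.3%, 20.9% and 15.1% of Ku70-/- and 7.71%, 7.77% and 8.66% of WT Vκ site junctions, again without overlap.

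The same bait in arrested cells shows which of these features differ without arrest. Arrested Ku70-/- libraries held 94115, 112101 and 107742 Vκ site junctions, against 6133, 4678 and 5535 in cycling ones. Junctions elsewhere in the Vκ region were 1980, 3262 and 3249 in arrested and 2865, 2292 and 2287 in cycling Ku70-/- libraries, so their number per 500000 read pairs overlapped. Without arrested library 1 it did not, and both arrested libraries were above all 3 cycling ones. Of these cycling copies away from the sites, 57.6%, 57.9% and 47.8% were of joints also found in arrested libraries 2 or 3. The share of Vκ region junctions away from the sites was 2.06% to 2.93% in arrested and 29.2% to 32.9% in cycling Ku70-/- libraries. Direct joints were 48.2% to 53.3% and 34.0% to 36.5%, and MH over 1 bp was 11.8% to 16.9% and 32.7% to 39.2%. The ranges did not overlap in any of the 3 measures (exact permutation p = 0.1 for each). Hybrid joints were 32.7% to 40.3% and 38.7% to 43.1%, and joints within 10 bp of the break were 44.6% to 51.8% and 40.9% to 45.2%, with overlap in both. Without arrested Ku70-/- library 1, hybrid joints were 32.7% to 33.0% in arrested cells and no longer overlapped (exact permutation p = 0.1).

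The difference between genotypes was set side by side for cycling and arrested cells. The share away from the sites differed by genotype by 31.2 percentage points in cycling and 2.46 in arrested cells. MH over 1 bp differed by 33.2 and 13.1 points, direct joints by -36.2 and -19.4 points, hybrid joints by 40.2 and 35.1 points, and joints within 10 bp by -55.6 and -50.5 points. Permuting genotype within treatment gave p of 0.1 for the share away from the sites, 0.145 for MH over 1 bp, 0.485 for direct joints, 0.655 for hybrid joints and 0.615 for joints within 10 bp (exact, 400 arrangements). This permutation assumes no genotype effect in either treatment, so that these p-values say nothing of whether the genotype difference changed with arrest. Without arrested Ku70-/- library 1, which had 889 distinct Vκ site junctions against 12885 and 12042 in the others, the arrested differences were 2.73 points away from the sites, 14.7 for MH over 1 bp, -17.9 for direct joints, 32.7 for hybrid joints and -52.6 within 10 bp.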

How the data were processed

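The deposited lists give 1 junction per line, with the position and strand of the prey, the bait end and the stretch of the read that each part covers, as positions rather than counts. Before they deposited them, the authors took each library down to 500000 read pairs, mapped them to mm9 (Bowtie2 per the labels; its version is not given in the sources used here) keeping duplicates, and added bait region junctions. Each library was read in 2 runs, of which the smaller gave 9.88% to 10.6% of junctions. All counts, percentages and log2 values were computed here.

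Vκ breaks were positions with at least 30 junctions in the signal end libraries of arrested WT cells, none higher within 200 bp, and a heptamer start (CAC) next to them or 1 base off. This gave 137 sites, 93 with a gene of GENCODE vM1 on NCBIM37, the assembly of mm9. Overlap of bait and prey on the read was taken as microhomology and a gap as insertion, within 20 bp. Libraries are the replicates and were grouped by their labels. Exact two-sided permutation tests compared library means. limma 3.58.1 (R 4.3.3) was used for sites, with the value of 1 junction added before log2, and was tested on simulated data. It called 98.0% of simulated 4-fold changes, and 9.26% of its calls were false. The simulated spread was that of sites well used in both genotypes, and copies were drawn as independent. These rates therefore do not carry over to less used sites, and a site that did not pass is not shown to be unchanged. Other tools were Python 3.11.15 and pandas 2.3.3.

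Sites named are the 3 largest rises and 3 largest falls past the threshold without overlap, the 5 most used in each genotype, and those from Igkv3-7 to Igkv3-1. Sites named by count outside this rule were chosen after their values were seen. Members, lists and tests were chosen with earlier results of these data known. Alternatives were each distinct junction counted once, each run alone, other windows, site support, denominators, distances, pseudocounts and filters, and each library left out. Others were added after seeing the data. These were junctions of 1 library only, sites without the 5 next to Jκ, and equal junction numbers.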

Additional observations from a re-analysis of the deposited data

How the results depend on the processing

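Of 433 alternative values for 35 results, 410 were kept, 14 changed direction and 9 moved. Kept means the same direction for a measure, and a similar number for the counts of sites that rose or fell. For the genotype differences set side by side with arrest it also means the same side of 0.05. The exact test of 3 libraries against 3 cannot pass 0.05, so that for its results this speaks of direction only, not of size or overlap. No paired analysis was possible because the labels give no replicate numbers. Without the 5 sites from Igkv3-7 to Igkv3-2, the third block of sites, counted from the farthest, changed to -2.76 and the block nearest Jκ1 to 2.35 percentage points, and 3 sites fell. The nearest block was 1.42 with each distinct junction counted once and 0.389 over junctions of 1 library each counted once, and the third block was -0.141 in the smaller run. The rest of chromosome 6 was -0.0984 per read pair. Over junctions found in 1 library only, the farthest block was -1.02, the inversional share 2.37 and distinct junctions -22.1 per 1000, and counted once direct joints were 3.90. At equal junction numbers distinct junctions were -121 per 1000. Leaving out each library in turn gave -0.24 to 0.45 (log2) for joints to other chromosomes, -3.07 to 0.254 for the inversional share and 5 to 12 sites that fell, with 11 without Ku70-/- library 2 and 12 without library 3. The sites that rose numbered 4 with distinct junctions, 0 in the smaller run, 2 with at least 50 junctions, 3 with limma's trend and 0 over junctions of 1 library. The smaller run gave 2 sites that fell. The log2 difference of Igkv8-27 changed sign to -0.046 without the 5 sites and was -0.079 to 0.206 when each library was left out, and Igkv3-10 passed with distinct junctions counted once (0.91). The causes were not tested. Copies are not independent molecules, so floors cover the counting error of copies only and are too strict for molecules.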
